A study of Mus musculus with 12 samples.

Results

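The complement genes C3, Hc, C8a, C8b, C9, Cfb, C4b, Masp1 and Mbl2 were followed from liver tissue through cell isolation into culture. They are 9 of the 32285 genes in the single-nucleus RNA matrices and were listed by name, with earlier results of these data known. For each gene, the spliced, unspliced and ambiguous unique molecular identifiers (UMIs, each standing for a captured RNA molecule) of the nuclei of a sample were added. All 9 passed the filter of at least 10 counts over the samples in every comparison.

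The study asked how isolation and culture change mouse hepatocytes and took 3 samples from each of 8 mice. Samples with the same number were read as coming from the same animal. Liver (L) was a piece of the median lobe, tied off and frozen after the blood had been flushed out with an EGTA buffer. Cell Suspension (CS) held cells of the same liver after collagenase perfusion, straining and low-speed spins that enrich hepatocytes. Primary Hepatocytes (PH) were such cells after overnight culture on collagen in medium with dexamethasone and insulin, detached with trypsin. The mice were wild-type males of 10 to 12 weeks on chow, sedated with avertin, and their strain is C57BL/6NTac in the study's methods and C57BL6J in the labels. Time in culture, dexamethasone, insulin, plating and trypsin came together, so their parts in a difference between PH and the other groups cannot be told apart. There were 8 samples per group and 24 in all, marked with antibody hashtags and mixed in 6 pools of 4. One hashtag is written CD2 in the authors' table, in group CS, and was read as CS2, so the CS value of mouse 2 and its pairing with L and PH rest on that reading.

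Complement is a set of plasma proteins, made largely by hepatocytes, that cut one another in cascades. A classical route starts from antibody, a lectin route from sugars bound by mannose-binding lectin with its protease Masp1, and an alternative route from spontaneous turnover with factor B. All of these cut C3, and downstream of C3 the proteins C5 (encoded by Hc), C6, C7, C8 and C9 assemble into a pore in the target membrane. Several of the genes also belong to the acute-phase programme of the liver, which cytokines and glucocorticoids drive.

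RefSeq promoters of build GRCm38.p6, running from 250 bases before to 50 bases after the start, were at hand for 6 of the 9 genes (Hc, C8a, C8b, C9, C3 and Mbl2). Those of the 4 pore genes, whose RNA differed most between culture and tissue, and of C3, the hub of the cascade, are shown. They lie at chr2:35061363-35061662 (Hc, minus strand), chr4:104876349-104876648 (C8a, minus strand), chr4:104766067-104766366 (C8b, plus strand), chr15:6445096-6445395 (C9, plus strand) and chr17:57228087-57228386 (C3, minus strand). Each is written 5′ to 3′ in the gene's direction, and capitals mark matches to the motifs named after the sequences.
Hc: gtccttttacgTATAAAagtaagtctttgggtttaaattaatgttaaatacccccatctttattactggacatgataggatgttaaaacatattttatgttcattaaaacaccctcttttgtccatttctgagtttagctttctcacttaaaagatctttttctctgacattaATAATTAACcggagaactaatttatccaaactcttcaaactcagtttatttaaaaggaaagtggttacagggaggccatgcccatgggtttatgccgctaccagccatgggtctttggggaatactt
C8a: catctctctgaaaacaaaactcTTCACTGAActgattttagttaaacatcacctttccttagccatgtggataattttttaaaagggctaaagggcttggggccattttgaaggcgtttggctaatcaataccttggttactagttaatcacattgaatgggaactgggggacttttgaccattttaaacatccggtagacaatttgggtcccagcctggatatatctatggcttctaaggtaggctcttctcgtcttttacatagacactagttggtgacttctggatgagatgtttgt
C8b: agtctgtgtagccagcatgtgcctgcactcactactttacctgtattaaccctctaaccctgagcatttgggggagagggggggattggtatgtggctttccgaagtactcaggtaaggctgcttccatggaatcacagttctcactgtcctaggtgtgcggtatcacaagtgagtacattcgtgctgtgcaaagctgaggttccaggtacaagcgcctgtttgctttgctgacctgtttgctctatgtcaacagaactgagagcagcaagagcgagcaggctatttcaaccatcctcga
C9: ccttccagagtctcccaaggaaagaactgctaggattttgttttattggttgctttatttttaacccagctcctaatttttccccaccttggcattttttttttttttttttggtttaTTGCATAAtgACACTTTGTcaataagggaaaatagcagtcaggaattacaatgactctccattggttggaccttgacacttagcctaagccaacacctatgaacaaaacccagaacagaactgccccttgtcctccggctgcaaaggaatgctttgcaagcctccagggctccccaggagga
C3: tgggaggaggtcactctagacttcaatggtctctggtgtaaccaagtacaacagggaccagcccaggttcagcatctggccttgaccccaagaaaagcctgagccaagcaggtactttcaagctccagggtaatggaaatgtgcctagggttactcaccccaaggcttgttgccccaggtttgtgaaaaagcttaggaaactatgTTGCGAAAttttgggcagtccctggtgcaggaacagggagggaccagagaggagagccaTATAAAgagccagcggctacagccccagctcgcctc

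Both strands were searched for TTGCNNAA (C/EBP, found in 10.8% of 32851 promoters), GGNNTTTCC (NF-kB, 5.82%), TTCNNNGAA (STAT, 8.3%), GTTAATNAT (HNF1, 0.801%), CAAAGTCCA (HNF4, 0.475%), ACANNNTGT (glucocorticoid receptor, 6.85%) and, for the TATA box, TATAAA (13.6%). Positions are the first base of the match relative to the annotated start. Hc held an HNF1 match at -77 and a TATA match at -239. C8a held a STAT match at -228. C9 held a C/EBP match at -132 and a glucocorticoid receptor match at -122, which do not overlap. C3 held a C/EBP match at -45 and a TATA match at 15, downstream of the annotated start. C8b and Mbl2 held no match to any of these letters.

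In GRCm38, C8a (chromosome 4, 104815679 to 104876398) and C8b (104766317 to 104804548) are neighbours on opposite strands, 11.1 kb apart. Cfb (chromosome 17, 34856374 to 34862518) starts 0.086 kb from C2, and C4b (34728380 to 34743882) lies 65.2 kb from C4a, a near-identical copy. Reads of C4b and C4a may have been split by the counting, so C4b levels are uncertain to that extent. C3 is on chromosome 17 (57203970 to 57228136), Hc on 2 (34983331 to 35061438), C9 on 15 (6445327 to 6498751), Masp1 on 16 (23449417 to 23520815) and Mbl2 on 19 (30232942 to 30239687). Exons cover 4.78% of C9, 5.99% of C8a, 6.66% of C8b and 8.02% of Hc, so that nearly all of these genes is intron, against 46.0% of Cfb and 36.7% of C4b.

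The hepatocyte nuclei numbered 15166 in L, 13339 in CS and 16283 in PH, with 6872031 to 29023569 UMIs per L sample, 2104087 to 17452582 per CS sample and 9852007 to 21226254 per PH sample. Levels are given as CPM, a sample's UMIs scaled to a common total, with TMM factors, a scaling that sets the bulk of genes to a common level. CPM here is not divided by gene length, so levels were compared between samples and not between genes. The scaling matters in this study: TMM factors were 1.24 to 1.57 in PH, 0.801 to 0.999 in L and 0.736 to 0.920 in CS. Without them the median change of all genes moved from 0.10 to 0.66 on the log2 scale for PH over L, from 0.02 to 0.71 for PH over CS and from 0.02 to -0.11 for CS over L. The genes called higher, as a share of all called, then moved from 51.2% to 76.0%, from 53.4% to 80.4% and from 37.2% to 20.1%. Changes below are relative to the bulk of genes. The 10 hepatocyte markers summed to 12822 to 17044 CPM in L, 15973 to 19329 in CS and 3022 to 7549 in PH, and the 11 endothelial markers in the same nuclei to 35.1 to 57.6, 41.0 to 85.1 and 125 to 178 CPM. The hepatocyte sum of every PH sample lay below those of all L and CS samples, and the endothelial sum above them. The part of these shifts in the results was not tested. In sums over many nuclei, fewer expressing cells and less RNA per cell cannot be told apart.

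From L to PH the largest changes among the 9 genes were the falls of Hc, C8a, C8b and C9, by 11.4-fold to 32.9-fold, and the other 5 differed by at most 3.33-fold. Between PH and L, 7 of the 9 genes passed the test (edgeR's quasi-likelihood test, adjusted p under 0.05 over 26778 genes), Masp1 higher and 6 lower, while 54.4% of all genes passed, 27.9% higher and 26.6% lower. The median log2 change was -1.74 over the 9 genes and 0.10 over all genes. Between PH and CS all 9 passed, Masp1 higher and 8 lower, where 51.1% of all genes did, 27.2% higher and 23.8% lower, with medians of -1.31 and 0.02. Between CS and L only C4b and Cfb (higher) and Mbl2 (lower) passed in the fit without a block, against 23.0% of all genes, 8.56% higher and 14.5% lower, with medians of -0.02 and 0.02. With the mouse as a block 4 passed (Hc too), where 2345 of the 26778 genes were called higher and 4066 lower. Leaving out 1 mouse at a time gave 5 to 7, 7 to 9 and 2 to 3 genes. The comparisons share samples, so they are not separate evidence.

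**Figure D1:**
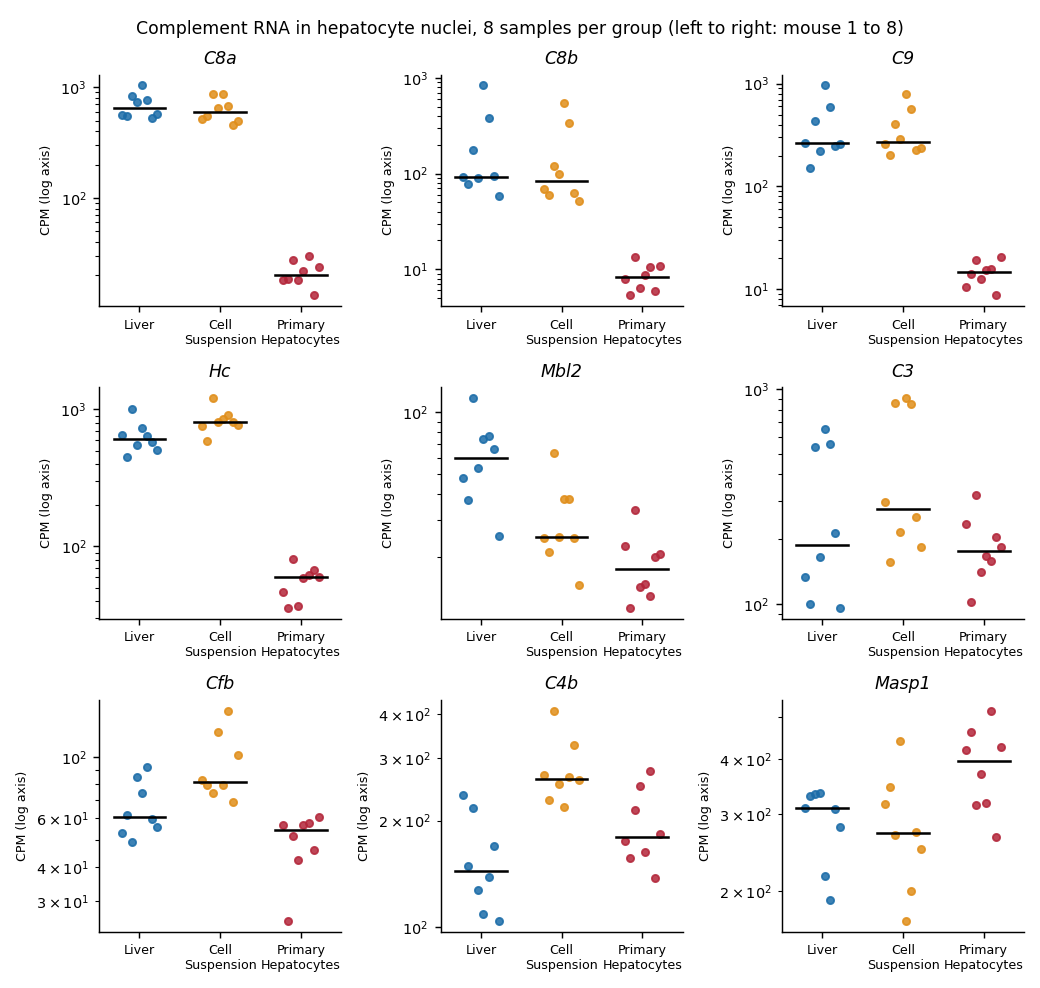
Levels of the 9 genes in hepatocyte nuclei (CPM, log axis) in Liver, Cell Suspension and Primary Hepatocytes. Points are the 8 samples of a group, ordered from mouse 1 to mouse 8, and bars are medians. All 8 PH points lie below all L and CS points for C8a, C8b, C9 and Hc, while the groups overlap for C3, C4b, Masp1 and Mbl2.

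Masp1, the protease that travels with mannose-binding lectin, was measured at 191 to 334 CPM in L (median 309), 171 to 439.9 in CS (median 271) and 266 to 516 in PH (median 396). The ranges overlapped, with 5 of 8 PH samples above the highest L sample. Masp1 rose by 0.42 ± 0.17 on the log2 scale (estimate ± SE) from L to PH (adjusted p = 0.0324 by edgeR) and by 0.45 ± 0.17 from CS to PH (adjusted p = 0.0256), higher in 6 of 8 mice in both. The call for PH over L was lost with pool as a covariate (0.21, adjusted p = 0.513) and without mouse 1, 2, 6 or 8 (lowest 0.29, without mouse 6). That for PH over CS was lost with pool (0.36) and without mouse 6 (0.32) or 8 (0.40). Without TMM factors both were larger, at 0.98 (adjusted p = 8.48e-06) and 1.15 (adjusted p = 7.39e-07), and the unscaled CPM of Masp1 was 361 to 651 in PH, above all L (173 to 329.9) and CS samples (135 to 324). CS and L differed by -0.02 ± 0.17 (adjusted p = 0.947). Spliced RNA alone gave the opposite sign, as described with the splicing states.

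Mbl2, a mannose-binding lectin that starts the lectin route, was the only one of the 9 called lower in CS than in L. It was at 25.2 to 117 CPM in L (median 59.9), 14.6 to 63.4 in CS (median 24.9) and 11.3 to 33.8 in PH (median 17.5). Every mouse was lower in CS than in L, at 0.375 to 0.578 of its L level, although the ranges overlapped. The change was -0.99 ± 0.27 for CS over L (adjusted p = 0.00731), -1.74 ± 0.27 for PH over L (adjusted p = 2.56e-06) and -0.74 ± 0.27 for PH over CS (adjusted p = 0.0238). Without TMM factors PH over L was -1.15 (adjusted p = 2.75e-04). The change for PH over CS was lost without mouse 4, 5 or 6 (-0.63 without mouse 6), with background RNA subtracted (-0.69), in unspliced counts alone (-0.88, adjusted p = 0.0518) and without TMM factors (-0.02, adjusted p = 0.942).

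C4b encodes C4, which the classical and lectin proteases cut to form the enzyme that cuts C3. It was at 104 to 236 CPM in L (median 144), 218 to 409 in CS (median 263) and 138 to 276 in PH (median 179). CS stood highest, with 6 of 8 samples above the top of the L range. C4b rose by 0.83 ± 0.17 from L to CS (adjusted p = 5.01e-04), in 8 of 8 mice, and fell by 0.52 ± 0.17 from CS to PH (adjusted p = 0.0118), in 7 of 8. The rise was lost in unspliced counts alone (0.425, adjusted p = 0.17). PH over L gave 0.31 ± 0.17 (adjusted p = 0.124), which became a call with DESeq2 size factors (0.42, adjusted p = 0.0378), with filterByExpr (0.40), with sums thinned to the shallowest sample (0.44), without mouse 1 (0.44) and without TMM factors (0.89). The fall from CS to PH was lost with pool as a covariate (-0.45), in spliced counts alone (-0.35), without mouse 7 (-0.43) and without TMM factors, where the sign turned (0.19, adjusted p = 0.382).

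C3, the protein on which all routes meet, was the most uneven of the early genes. It was at 95.5 to 654 CPM in L (median 189), 156 to 907 in CS (median 276) and 102 to 319.5 in PH (median 176). The wide ranges of L and CS came from mice 3, 5 and 6, described further on. C3 fell by 1.31 ± 0.41 from CS to PH (adjusted p = 0.00882), in 8 of 8 mice, which was lost without TMM factors (-0.60, adjusted p = 0.201). PH over L gave -0.70 ± 0.41 (interval -1.50 to 0.10, adjusted p = 0.155), lower in 5 of 8 mice. CS over L gave 0.60 ± 0.41 (adjusted p = 0.325) in the fit without a block, whose SE includes the spread between mice. Yet each mouse was higher in CS than in L, by 1.19 to 2.23 times, with an SD of 0.295 for the log2 ratio. With the mouse as a block C3 did not pass either.

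Cfb encodes factor B, the enzyme subunit of the alternative route. It was at 49.2 to 92.1 CPM in L (median 60.8), 68.7 to 147 in CS (median 80.9) and 25.5 to 60.7 in PH (median 54.2). Every PH sample lay below every CS sample, while PH and L overlapped. Cfb rose by 0.51 ± 0.17 from L to CS (adjusted p = 0.0292, 8 of 8 mice) and fell by 0.93 ± 0.17 from CS to PH (adjusted p = 3.20e-05, 8 of 8 mice). For PH over L it fell by 0.42 ± 0.17 (adjusted p = 0.04), in 5 of 8 mice. That call was lost with DESeq2 size factors (-0.32), with filterByExpr (-0.34), in spliced counts alone (-0.15), with thinned sums (-0.18), with pool as a covariate (-0.46, adjusted p = 0.0609), with background RNA subtracted (-0.42, adjusted p = 0.0509) and without mouse 2, 4, 5, 6 or 7 (-0.26 without mouse 4), and the sign turned without TMM factors (0.14, adjusted p = 0.479). The rise from L to CS was lost without mouse 1, 3 or 8 (0.47 without mouse 8), in spliced (0.27) or unspliced counts alone (0.455) and without TMM factors (0.39), and the fall from CS to PH without TMM factors (-0.25, adjusted p = 0.213).

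Hc, C8a, C8b and C9, the genes of the membrane pore, had the largest falls among the 9 in culture. For these 4 genes every PH sample lay below every L and every CS sample, as did every PH sample of Cfb against CS. Such a separation was seen downward in 16.2% of 26730 genes between PH and L and in 12.2% between PH and CS.

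Hc encodes C5, whose cutting starts pore assembly. It was at 448 to 1004 CPM in L (median 608), 586 to 1214 in CS (median 808) and 35.4 to 81.5 in PH (median 59.6). It fell by 3.51 ± 0.19 from L to PH, 11.4-fold (adjusted p = 5.29e-16), and by 3.90 ± 0.19 from CS to PH (adjusted p = 1.18e-16). Between L and CS the ranges overlapped, but each mouse was higher in CS. That difference, 0.39 ± 0.17 (adjusted p = 0.107), became a call with the mouse as a block (0.40, adjusted p = 0.0083), with DESeq2 size factors (0.47), with filterByExpr (0.48), in spliced counts alone (0.51), with thinned sums (0.49) and without mouse 3 (0.42).

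C8a encodes the alpha chain of C8, the component that inserts into the membrane. It was at 527 to 1047 CPM in L (median 653), 455 to 872 in CS (median 601) and 13.1 to 29.8 in PH (median 20.04). C8a had the largest change of the 9 in PH over L, falling by 5.04 ± 0.20 or 32.9-fold (adjusted p = 8.69e-19), and fell by 4.90 ± 0.20 from CS to PH (adjusted p = 1.78e-18). CS over L gave -0.14 ± 0.17 (adjusted p = 0.619), lower in CS in 7 of 8 mice, at 0.823 to 1.05 of the L level.

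C8b, the beta chain of C8 and the neighbour of C8a in the genome, was at 58.2 to 844 CPM in L (median 92.5), 51.7 to 545 in CS (median 83.5) and 5.32 to 13.3 in PH (median 8.39). A single animal, mouse 5, held the top of both wide ranges. CS was below L in 7 of 8 mice, at 0.645 to 1.10 of the L level, and did not pass. C8b fell by 4.72 ± 0.59 from L to PH, 26.3-fold (adjusted p = 3.83e-08), and by 4.29 ± 0.58 from CS to PH (adjusted p = 1.80e-07). With the mouse as a block the changes were -4.03 and -3.68, and without mouse 5 PH over L was -4.01.

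C9, which polymerises into the wall of the pore, was at 151 to 969.6 CPM in L (median 263), 202 to 799 in CS (median 273) and 8.70 to 20.7 in PH (median 14.8). It fell by 4.75 ± 0.36 from L to PH, 27-fold (adjusted p = 1.49e-12), and by 4.68 ± 0.36 from CS to PH (adjusted p = 2.65e-12). CS over L gave -0.08 ± 0.31 (adjusted p = 0.898). Without TMM factors the falls of the pore genes were smaller and still called. From L to PH they were 17.7-fold for C9, 17.04-fold for C8b, 22.1-fold for C8a and 7.68-fold for Hc, and from CS to PH 15.7-fold, 12.1-fold, 18.4-fold and 9.26-fold.

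RNA free in the droplets adds to the counts of these genes in PH. Barcodes of 100 to 600 UMIs were taken as the background of each pool. By that measure background could supply a median of 29.3% of the C9 counts in PH (16.5% to 82.4% over samples), 25.9% of C8a, 17.9% of C8b and 14.6% of Hc, against 2.33% of Masp1 and 2.37% of C4b. With it subtracted, PH over L was -5.44 for C9 and -5.48 for C8a. In spliced counts alone the falls were smaller for C9 (-2.83, 7.10-fold), C8b (-2.80, 6.95-fold) and C8a (-4.03), and Hc was at -3.76. With each nucleus thinned to 1000 UMIs, C8a was seen in 44.4% of L, 36.6% of CS and 3.22% of PH hepatocyte nuclei, and C9 in 25.2%, 22.0% and 2.19%. PH nuclei with endothelial markers, mostly of a shallow cluster that was left unnamed, held C8a in 2.94%, C9 in 3.10%, C8b in 2.10% and Hc in 2.93% at the same depth, against 3.22%, 2.19%, 1.45% and 7.55% of PH hepatocyte nuclei. The PH hepatocyte share was thus below that of the endothelial-marker nuclei for C9 and C8b, so no detection in PH hepatocytes is read from the shares of these genes. The endothelial-marker nuclei also held hepatocyte markers, at a median sum of 3347 CPM against 4662 in PH hepatocyte nuclei, and how much free RNA each kind of nucleus held was not tested. Unthinned, C8a was in 87.9%, 73.2% and 14.5% of hepatocyte nuclei.

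Within the 2 pools that held both L and PH, the pore genes were lower in PH in each. From L to PH the log2 ratio in pools 2 and 5 was -5.36 and -5.35 for C8a, -4.16 and -5.61 for C9, -3.82 and -6.13 for C8b and -3.89 and -3.38 for Hc. C4b was higher in PH in both pools, by 0.97 and 0.87. With 1 sample or 2 of a group in a pool, these are values without a test. The only L sample of pool 5 was L5, which held the highest L values of C8a, C8b and C9.

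Nuclei hold much unspliced RNA, and the 2 states did not change alike. Among all hepatocyte UMIs 74.2% were unspliced in L, 66.5% in CS and 64.0% in PH. The change from L to PH in unspliced counts differed from that in spliced counts for 6 of the 9 genes, against 17.3% of 26590 genes (edgeR with a term for each sample). The gap between the changes in unspliced and spliced RNA was widest for C9, at -2.19 ± 0.16 (adjusted p = 3.21e-32), and its unspliced share went from 89.9% in L to 58.2% in PH. C8b (-1.88), Cfb (-1.04) and C8a (-1.02) lay the same way. Free RNA could supply a median of 29.3% of the C9, 25.9% of the C8a and 17.9% of the C8b counts in PH. In L these shares were 3.46%, 2.54% and 3.28%. It was not subtracted by state, so its part in these gaps was not tested. Hc gave 0.54 ± 0.16 (adjusted p = 0.00553), which was lost without the sample terms (0.56, adjusted p = 0.281). C3, C4b and Mbl2 did not pass, at 0.02, -0.25 and -0.21.

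Masp1 went the other way, with a difference of 1.84 ± 0.14 (adjusted p = 1.14e-31). Its unspliced RNA was at 146 to 266 CPM in L (median 241) and 217 to 399 in PH (median 316), and its spliced RNA at 22.3 to 47.0 in L (median 32.3) and 12.5 to 27.1 in PH (median 18.0). Both pairs of ranges overlapped. These CPM are scaled to all hepatocyte UMIs of a sample. The log2 change of a state is instead relative to the UMIs of that state alone. Spliced UMIs were 18.0% of all hepatocyte UMIs in L and 26.2% in PH, so the 2 scales can differ. Taken alone, unspliced Masp1 rose by 0.58 (adjusted p = 0.00466) and spliced Masp1 fell by 0.998 (adjusted p = 3.11e-06). For Cfb the unspliced RNA fell from 22.4 to 42.5 CPM in L (median 24.7) to 5.73 to 12.9 in PH (median 9.43), with no overlap. Its spliced RNA was at 22.3 to 46.6 CPM in L (median 32.5) and 16.9 to 45.1 in PH (median 37.0). Relative to spliced UMIs alone its change was -0.15, which did not pass. Of all genes, 58.2% passed in spliced and 54.4% in unspliced counts.

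**Figure D2:**
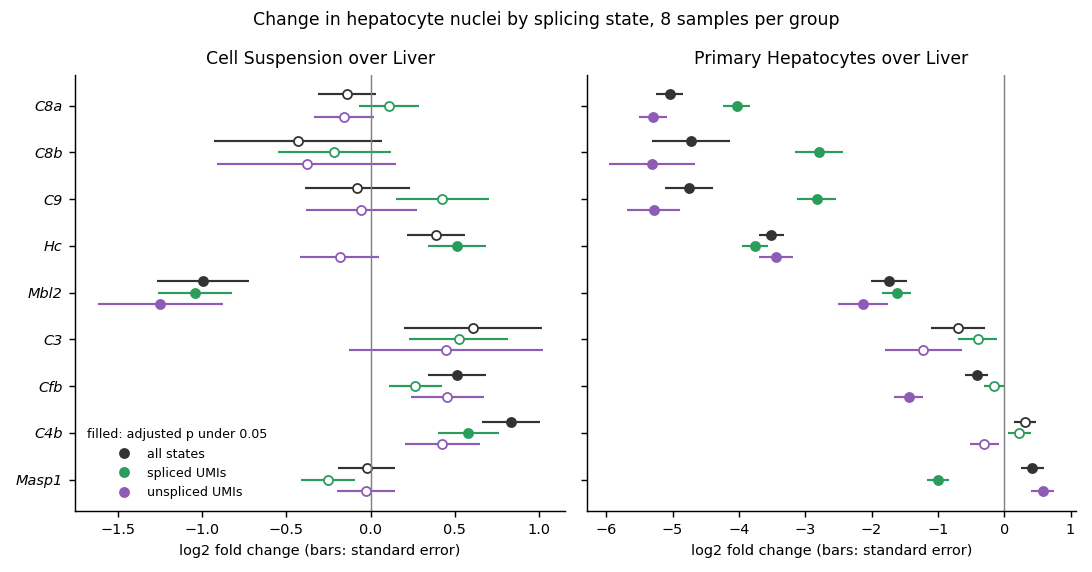
Log2 fold change with SE in hepatocyte nuclei for CS over L and PH over L, from all counts, spliced counts and unspliced counts. Filled points have an adjusted p under 0.05. Masp1 in PH over L is above 0 from all counts and unspliced counts and at -0.998 from spliced counts, and in PH over L the pore genes lie far below 0 in every state.

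Mice 3, 5 and 6 stood apart from the other 5 in tissue and suspension, a grouping known from earlier results of these libraries and therefore given without a test. C3 was at 654 CPM in L5, 553 in L6 and 539.5 in L3, and at 95.5 to 213 in the other L samples. In CS it was at 907, 852 and 860.4 in mice 5, 6 and 3, and at 156 to 298 in the rest. The same animals led for C8b, at 844 in L5, 378 in L6 and 178 in L3, against 58.2 to 93.8 in the rest. They led for C9 as well, at 969.6 in L5, 595 in L6 and 433 in L3. These mice held the 3 highest L values for 5 of the 9 genes (C3, C8a, C8b, C9 and Mbl2), as they did for 8.97% of 8611 genes of at least 10 CPM. In CS they did so for 6 of 9 (Hc too), against 3.72% of genes, and in PH for 0 of 9, against 2.85%. The ratio of highest to lowest C8b sample was 14.5 in L, 10.5 in CS and 2.5 in PH. L5 and CS5 were in different pools, as were L3 and CS3, while L6 and CS6 shared pool 6. The median hepatocyte nucleus held 13996 UMIs in L3, 13129.5 in L5 and 5305 in L6, against 4390.5 to 9923 in the other L samples. The part of pool and depth was not tested. The unspliced share of C3 in L was 66.9%, 65.3% and 62.3% in mice 3, 5 and 6, the top of a range that began at 16.01%.

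**Figure D3:**
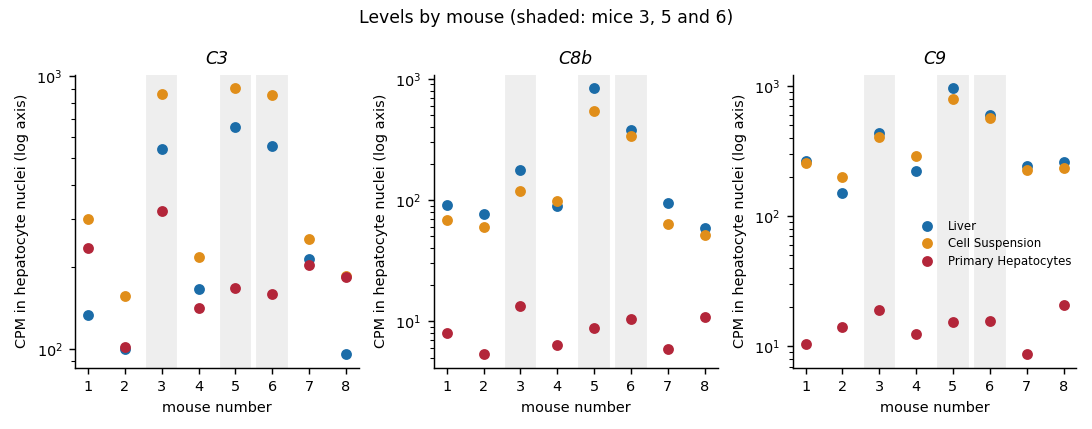
C3, C8b and C9 in hepatocyte nuclei (CPM, log axis) by mouse number in L, CS and PH, with mice 3, 5 and 6 shaded. In L and CS the shaded mice hold the highest points, with C8b at 844 in L5, and in PH they do not stand apart.

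Hepatocytes differ along the lobule, from the portal vein to the central vein, and the hepatocyte nuclei of each sample were divided into 3 equal classes by a score of 10 pericentral and 10 periportal genes, of which the outer 2 were compared. The classes are ranges of a score and not cell types, and 16.3% to 26.9% of the L nuclei and 18.6% to 29.4% of the CS nuclei lay within 0.25 (log2) of a cut. In L, 7 of the 9 genes were lower in the pericentral class, against 20.2% of 22158 genes called in either direction, each in 8 of 8 samples. C9 was at 158 to 1151 CPM (median 288) in the periportal and 78.5 to 502 (median 166) in the pericentral class. It differed by -0.999 ± 0.06 (adjusted p = 1.59e-11), followed by C8a (-0.59), Hc (-0.58), Cfb (-0.45), C3 (-0.39), C8b (-0.38) and Mbl2 (-0.24). The Mbl2 call was lost with 2 classes in place of 3 (-0.12, adjusted p = 0.0896). Masp1 (-0.12, adjusted p = 0.104) and C4b (0.08, adjusted p = 0.37) did not pass.

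In CS 6 of the 9 passed, against 19.9% of 19851 genes. C9 (-1.05 ± 0.09, adjusted p = 9.77e-11), C8a (-0.73), Hc (-0.44), C8b (-0.43) and Cfb (-0.34) were again lower in the pericentral class. C4b was higher there by 0.37 ± 0.10 (adjusted p = 0.00629), in 7 of 8 samples, with medians of 195 and 252 CPM. The pericentral class of CS was shallower than the periportal in 7 of 8 samples, for instance with 2781 against 5757 median UMIs in CS1 and 3721 against 7767 in CS4, and deeper in CS3 (9393 against 4533.5). The part of depth in these differences was not tested. C3 gave 0.05, Masp1 -0.14 and Mbl2 -0.19, none of which passed. Whether the classes differed between L and CS was not tested.

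**Figure D4:**
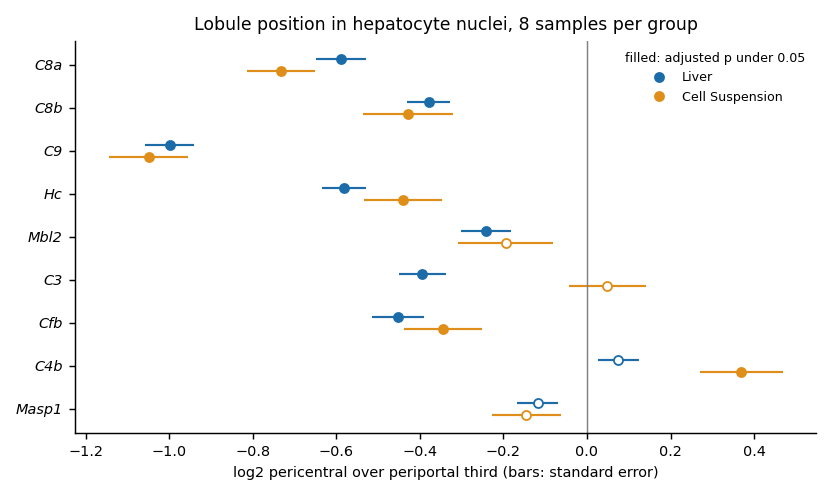
Log2 difference of the pericentral over the periportal class of hepatocyte nuclei, with SE, in L and CS. Filled points have an adjusted p under 0.05. C9 lies lowest in both, at -0.999 and -1.05, and C4b is above 0 in CS at 0.37.

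Among the cells of L, the hepatocyte nuclei carried 95.5% to 98.5% of the counts of 8 of the genes and 88.5% of those of Masp1, against 89.3% of all UMIs. Masp1 was at 607 to 1089 CPM (median 848) in nuclei with markers of stellate cells, the vitamin A-storing cells of the sinusoid wall. In hepatocyte nuclei it was at 173 to 329.9 (median 279), with no overlap, and these levels carry no TMM factor. Masp1 was higher in stellate nuclei by 1.27 ± 0.12 (adjusted p = 1.27e-13). The other 8 were lower, from -1.65 for C3 to -3.18 for C8a, so all 9 passed where 41.7% of 23799 genes did.

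All 9 were also lower in endothelial nuclei (48.9% of 24011 genes passed), from -1.09 for Masp1 to -3.07 for C8a. In nuclei of Kupffer cells, the macrophages of the liver, all 9 were lower as well (40.9% of 23764 passed), from -1.10 for C4b and -1.30 for Cfb to -3.28 for C8a. For scale, 12 secreted or metabolic hepatocyte genes such as Alb had medians of -2.44 in stellate, -2.35 in endothelial and -2.20 in Kupffer nuclei. Hepatocyte RNA free in the droplets may reach these nuclei too, and its part was not tested.

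**Figure D5:**
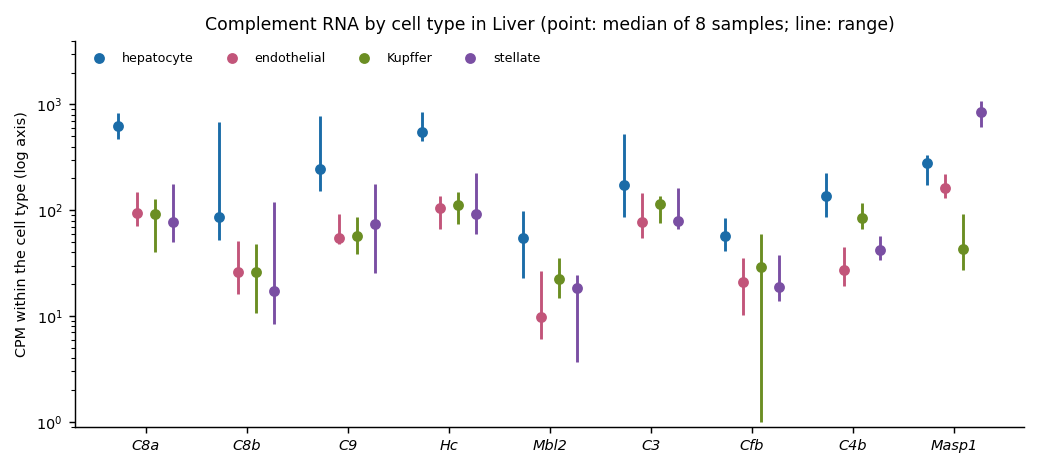
Levels of the 9 genes in L by cell type (CPM without TMM factors, log axis), with the median as a point and the range over samples as a line. The Kupffer minimum of Cfb, 0, is drawn at 1. Masp1 is highest in stellate nuclei (median 848 CPM) and the other genes are highest in hepatocyte nuclei.

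In PH the nuclei with endothelial markers were shallow: 1733 of 1809 belonged to a cluster whose median nucleus had 1355 UMIs, 0.243 of its own sample's median. That cluster was left unnamed here because it is shallow and none of the endothelial markers of the list is among its 10 leading genes. The paper re-clustered the PH cells and named some of them dedifferentiated endothelial cells, by markers such as Arhgap31 and Adgrf5. Whether those are the nuclei of this cluster was not tested. For PH the term here is nuclei with endothelial markers and not a named cell type. The 11 endothelial markers summed to a median of 14629.7 CPM in such nuclei in L and 7429.5 in PH, and the 10 hepatocyte markers to 3218 and 3347, where PH hepatocyte nuclei had 4662. The part of these shifts and of depth in the changes below, the interaction included, was not tested. From L to PH 5 of the 9 genes passed in them, against 35.0% of 18279 genes. C4b rose by 1.33 ± 0.26 (adjusted p = 5.68e-05 by edgeR). It was at 19.99 to 44.4 CPM in L (median 29.2) and 45.0 to 140.05 in PH (median 70.0). These levels rest on 10 to 72 C4b UMIs per L sample and 8 to 58 per PH sample. The background barcodes of the pools held C4b at 91.8 to 124 CPM, and the part of free RNA in the rise was not tested. Cfb rose by 0.96 (adjusted p = 0.00375), and C8a (-1.61), Hc (-1.11) and C9 (-0.96, adjusted p = 0.0214) fell, C9 no longer passing with DESeq2 size factors (-0.81). PH samples held 1 to 41 UMIs of Cfb, 1 to 32 of C8a, 1 to 35 of Hc and 0 to 40 of C9. Their PH medians were 39.8, 23.9, 51.4 and 17.6 CPM. Background barcodes held them at 60.1 to 127, 83.0 to 430, 145 to 457 and 78.0 to 381 CPM. The part of free RNA in these changes was not tested. With the mouse as a block C3 (0.54, adjusted p = 0.0358) and C8b (-0.95, adjusted p = 0.0498) passed too, and C3 also with DESeq2 size factors (0.69).

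From CS to PH, 4 of the 9 passed in these nuclei, against 20.9% of genes: Hc (-1.51), C8a (-1.39), C9 (-1.14) and Cfb (0.86, adjusted p = 0.0463). With the block C8b (-1.30) passed too, as it did with DESeq2. From L to CS 0 of 9 passed with edgeR, against 4.14% of genes, and 1 gene, C4b, was under an unadjusted p of 0.05. C4b, at 0.79 (adjusted p = 0.115 by edgeR), passed with the block (0.82, adjusted p = 0.0395) and with DESeq2 (0.97).

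The change from L to PH differed between hepatocyte nuclei and nuclei with endothelial markers for all 9 genes by a test of the interaction, against 24.5% of 27025 genes. The hepatocyte change less the endothelial was -3.29 for C9, -3.26 for C8b, -3.15 for C8a and 0.49 for Masp1, the last not passing with DESeq2 size factors (0.42, adjusted p = 0.0707). C4b had a difference of -0.78 (adjusted p = 0.00391), and Cfb of -1.12. The 12 hepatocyte genes had a median change of -1.88 in hepatocyte nuclei and 0.06 in nuclei with endothelial markers.

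Over all nuclei of a sample, 7 of the 9 passed between PH and L, against 56.7% of 27269 genes, with C4b (0.61) and Masp1 (0.62) higher and Cfb (-0.13) and C3 (-0.43) not passing. Between PH and CS 7 passed, against 51.2%, without C4b (-0.34) and Mbl2 (-0.58), of which Mbl2 passed with the block (-0.48). Between CS and L 4 passed, against 21.3%: C4b (0.95), Cfb (0.63), Hc (0.54) and Mbl2 (-0.84, not passing with DESeq2 size factors, at -0.75). C8b, at -4.37 and -4.10 over L and CS, was at -3.65 and -3.43 with the block.

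Between CS and L, 0 of 9 passed with edgeR in Kupffer nuclei, against 1.24% of 13819 genes. There C9 (-0.76) and Mbl2 (-2.45, adjusted p = 0.054) had an unadjusted p under 0.05. In stellate nuclei 0 of 9 passed as well, against 3.37% of 13516, where 1 gene, C4b (0.68), had an unadjusted p under 0.05. In simulated data of these 2 comparisons, 46.3% and 13.4% of the genes changed 2-fold were recovered, so a change of that size could be missed.

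The other complement genes of a list fixed with earlier results known are given by their counts, beside the shares of all genes, and without a test of the list. Of the 43 measured, 6 rose, 26 fell and 11 did not pass between PH and L, with a median of -0.83 against 0.10 for all genes, of which 27.9% were called higher and 26.6% lower. Between PH and CS 5 rose and 25 fell (median -1.31), against 27.2% and 23.8% of all genes, and between CS and L 3 rose and 7 fell (median 0.04), against 8.56% and 14.5%. C6, the pore component between C5 and C8, fell by 4.87 ± 0.43 from L to PH (adjusted p = 2.87e-11), and C8g, the third chain of C8, by 2.97. The fluid-phase inhibitor C4bp (-4.85) and the lectin Mbl1 (-4.72) fell as well. The lectin protease Masp2 fell by 2.15, C2, the classical counterpart of factor B, by 1.93, and C1s1, a protease of C1, by 0.95. Of the inhibitors on the cell surface, Cd46 (0.57) and Cd59b (1.12) rose from L to PH, and Cd59a (-0.82) and Cr1l (-0.34) fell. Their changes from L to CS were -0.42 for Cd46, -0.42 for Cd59b, -1.06 for Cd59a and -0.96 for Cr1l. Then, from CS to PH, Cd46 (0.99), Cd59b (1.53) and Cr1l (0.62) rose, and Cd59a (0.24) did not pass. From L to CS, C4a rose with C4b, by 1.08 (adjusted p = 0.0377 by edgeR), and Clu, a fluid-phase inhibitor of the pore, by 1.61 (adjusted p = 3.25e-08). In culture C4a and C4b went apart. C4a gave -1.34 from L to PH, where C4b did not pass, and -2.42 from CS to PH, where C4b fell less. Mouse 6 held the highest C4a level, at 99.5 CPM in L (next 33.6) and 247.5 in CS (next 72.7).

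Beside these, 19 of 19 coagulation genes, also secreted by hepatocytes, fell from L to PH (median -2.26) and from CS to PH (median -2.74). Of 25 acute-phase genes, 15 rose and 0 fell from L to CS (median 1.41), 12 rose and 8 fell from L to PH (median 0.77), and 9 rose and 10 fell from CS to PH (median -0.28). The shares of all genes called in these comparisons are those given for the other complement genes. The complement genes of Kupffer cells were higher in Kupffer than in hepatocyte nuclei of L, by 7.96 for C1qb and 8.4 for the C3b receptor Vsig4.

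Over the 24 samples, and as a description of shared levels in the 3 groups, the gene most alike among 8611 was Socs2 for C3 (r = 0.922), Cyp2j5 for Hc (0.985), Cyp2e1 for C8a (0.996), Scp2 for C8b (0.984) and Lifr for C9 (0.992). For the rest it was Akap9 for Cfb (0.856), Ctsa for C4b (0.80), Snx30 for Masp1 (0.855) and Snap47 for Mbl2 (0.923). The samples share mice and pools, and r used log2(CPM + 1). Over the 8 L samples alone the same pairs had r from 0.286 (Cfb) to 0.982 (C8b), with 0.688 for C8a and 0.702 for Hc. Among the 9, C8a was alike to C9 (0.980) and to Hc (0.980), and C8b to C9 (0.965), while C3 and Masp1 ran opposite (-0.654). In L alone these were 0.856, 0.647, 0.940 and -0.595.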

How the data were processed

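Nuclei of 24 samples (8 mice, Liver, Cell Suspension and Primary Hepatocytes) were sequenced in 6 pools with 10x 3′ chemistry. Per the study's methods, the authors converted reads with bcl2fastq 2.19.0, quantified them with Salmon Alevin and Alevin-fry on a GRCm38 spliced and unspliced transcriptome, assigned nuclei by hashtag and removed doublets. The matrices they deposited hold raw UMI counts, neither normalised nor corrected for background. The authors' table of 53467 nuclei gave sample, group, cell type and cluster, and 337 barcodes occurred in more than 1 pool. It names cultured nuclei only as cultured, so they were divided here by marker lists. No further doublet caller was run. Of the columns of per-sample values, 0 were left unused, and the hashtag matrices were not analysed here.

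Spliced, unspliced and ambiguous counts were summed per sample and cell type (at least 10 nuclei) and tested with edgeR 4.0.16 (quasi-likelihood, TMM, at least 10 counts over samples, Benjamini-Hochberg adjusted p under 0.05, all groups in 1 fit) in R 4.3.3, with two-sided tests. CPM, fold changes and intervals (1.96 SE) come from these sums. DESeq2 1.42.0 was an alternative. The deposited values carry counting error that falls with depth. Tested on simulated data for PH over L in hepatocyte nuclei, the fit recovered 32.8% of 67 genes changed 1.5-fold, 92.5% changed 2-fold and 100% of 66 changed 4-fold. Of the genes changed 2-fold it recovered 46.3% for Kupffer CS over L and 13.4% for stellate CS over L (49.0% of its calls false). It recovered 50.7% for unspliced against spliced counts and 38.8% for the interaction. False calls were 6.25% for PH over L in hepatocyte nuclei and 14.8% for stellate over hepatocyte nuclei of L. Simulated counts had a set spread and no differences between mice or pools. In L the SD of log2 CPM was 1.15 for C3 and 1.32 for C8b, against 0.353 for C8a. The rates need not hold for genes as uneven as C3 and C8b.

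The 9 members were all named, other complement genes were drawn on among those at 10 CPM or more (1 of them is not reported here), and at most 1 most-alike gene was named per member. Members and lists were chosen with earlier results of these data known. Same-numbered samples were read as coming from the same mouse. Over 6477 genes, deviations of L and CS from their group means correlated within a mouse at 0.353 to 0.868. Between mice their median was -0.088. Medians within and between mice were 0.035 and -0.011 for L and PH, and 0.0077 and 0.0097 for CS and PH. These values do not show whether PH samples are paired with L or CS. Counts of mice for changes to PH rest on that reading. Alternatives covered scaling, filter, test, block, pool, splicing state, depth, nuclei and each mouse left out, with 4 added after seeing the data (background RNA subtracted, shallow clusters left out, nuclei in clusters of the other kind left out, no TMM factors).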

Additional observations from a re-analysis of the deposited data

Results flagged for a closer look

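In 7 of 90 groups of 7 or 8 samples, 1 sample stood apart by more than the limit that chance passes in about 1 group in 20. In hepatocyte nuclei this was C8b in L5, at 844 CPM with L6 next at 378. In endothelial nuclei it was C3 in CS3 (246, next 142). In Kupffer nuclei it was Masp1 in L8 (98.2, next 56.6) and in CS4 (166, next 67.5) and Mbl2 in CS5 (32.4, next 5.29). In stellate nuclei it was C8b in CS4 (88.3, next 29.2) and Mbl2 in CS6 (36.1, next 0). The Kupffer and stellate sums rest on few nuclei, and the part of depth in these values was not tested.

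The change from L to PH differed between hepatocyte nuclei and nuclei with endothelial markers by an interaction test in edgeR for each of the 9 genes. Given as hepatocyte less endothelial log2 change with its adjusted p, it was -3.29 for C9 (1.17e-22), -3.26 for C8b (3.02e-16), -3.15 for C8a (7.95e-23), -2.25 for Hc (3.64e-16) and -1.94 for Mbl2 (1.79e-07). It was -1.12 for Cfb (7.51e-05), -0.79 for C3 (0.00391), -0.78 for C4b (0.00391) and 0.49 for Masp1 (0.0334). The Masp1 difference no longer passed with DESeq2 size factors (0.42, adjusted p = 0.0707). The PH nuclei with endothelial markers lie mostly in a shallow cluster left unnamed, and the part of depth and of free hepatocyte RNA was not tested.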

How the results depend on the processing

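Among single values, 836 kept their direction and their side of the threshold, 53 lost the call, 23 gained it and 33 changed sign. Of those 33, 29 were past the threshold under neither setting. With the mouse as a replicate block the count of genes called in endothelial nuclei from L to CS went from 0 to 1 (C4b, 0.82), as with DESeq2 (1), and beside the changes given in the report the pairing mattered for C3 over all nuclei from L to CS (0.72, adjusted p = 0.0439). With an absolute log2 change over 1 required, 5 genes were called for PH over CS and 0 for CS over L. For PH over L the calls of Cfb (-0.42) and Masp1 (0.42) were lost. Without TMM factors 5 were called for PH over CS, and unspliced counts alone gave 1 for CS over L. Leaving out 1 mouse gave 5 to 7 (PH over L), 7 to 9 (PH over CS) and 2 to 3 (CS over L).

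Signs turned as follows, and where no construction of the alternative shows it the cause was not tested. For PH over L these were Masp1 spliced (-0.998), C4b unspliced (-0.30) and Cfb without TMM factors (0.14). For PH over CS they were Masp1 spliced (-0.75) and C4b without TMM factors (0.19). For CS over L, C9 was 0.011 with DESeq2 size factors, 0.011 with DESeq2, 0.025 with filterByExpr, 0.0033 with pool, 0.43 spliced, 0.0082 thinned and -0.107 to 0.0044 with 1 mouse left out, positive without mouse 5. Masp1 was 0.052 with both DESeq2 settings, 0.053 with filterByExpr, 0.090 thinned, -0.0887 to 0.020 with 1 mouse left out, positive without mouse 3 or 5 (0.0056), 0.015 with background subtracted and 0.0037 without nuclei in clusters of the other kind. C8a spliced was 0.11 and Hc unspliced -0.18, and C8a over all nuclei was -0.015 with the block. With at least 20 nuclei, Kupffer C3 was -0.14 and Masp1 -0.20, and stellate Hc -0.14, C8a -0.28 and Cfb -1.02. With DESeq2 size factors, Kupffer Hc was 0.10, C8a 0.15 and C8b 0.055, and stellate Masp1 0.056. C3 unspliced against spliced was -0.58 without the sample terms.

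PH levels of C8a, C8b and C9 rest on few counts per nucleus and on the background estimate. Stellate results for CS over L rest on 7 CS samples, and on 3 with at least 20 nuclei per sample. C4b shares near-identical sequence with C4a. PH and L met in only 2 of the 6 pools.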
